A study of Mus musculus with 6 samples.

Results

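The cytosolic ribosomal protein genes were followed in a comparison of 3 wild-type mice with 3 Gb5-deficient mice, each on its own single-colour Affymetrix array. The tissue is labelled as brain, and the series title gives cerebellum. Wild type was the control, and Gb5-deficient mice lack the G protein beta subunit encoded by Gnb5. The labels name the groups by genotype alone, give neither strain nor age, and describe littermates matched for age and sex without saying which mice shared a litter. Members were the probes annotated to a single gene whose symbol starts with Rpl or Rps and goes on with a digit, a or p, without the Rps6k kinases and without symbols holding -ps. This gave 50 genes and 106 probes among 18193 genes with such a probe, and for each gene the probe brightest on average over the 6 arrays was taken. By role, 20 genes encode proteins of the large subunit, 21 proteins of the small subunit, 2 the stalk, and 5 are paralogs of other ribosomal protein genes. The last pair, Rpl7l1 and Rps19bp1, fit the naming rule but are not known as proteins of the mature ribosome. Rpl7l1 belongs to ribosome assembly, and Rps19bp1 encodes a protein that binds Rps19. The RefSeq gene table lists the paralog Rps4l as a transcribed pseudogene.

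Cytosolic ribosomes are made of a small subunit, which reads the mRNA, and a large subunit, which joins the amino acids. Each ribosomal protein is present about once per ribosome, apart from the stalk proteins P1 and P2, and its mRNA is among the most abundant of nearly every cell. Many of these mRNAs begin with a C and a run of pyrimidines, the 5′ terminal oligopyrimidine (TOP) run, through which mTOR signalling and Larp1 control their translation and stability. The genes are also known for large numbers of processed pseudogenes, so probes for them often match further genomic copies.

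The annotated starts of a few members are shown because the TOP run is what the group is known to share and the selection rule did not use it. RefSeq promoter sequences (GRCm38.p6) were matched by symbol for 44 of the 50 genes. The run searched was a C followed by nothing but C or T, on the gene's own strand, for at least 5 bases in all and starting within 10 bases of the annotated start. Each line holds 30 bases, 5′ to 3′, of which the first 15 precede the annotated start. Capitals mark the longest such run, and a line without capitals holds none. The first 4 lines are members with long runs, and the last 3 are members with large array differences described further on. Rpl14, among the first 4, also had one of the larger differences, at -0.23 (log2). These picked lines cannot show whether run and difference go together.
Rps6: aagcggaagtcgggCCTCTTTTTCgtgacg
Rpl35: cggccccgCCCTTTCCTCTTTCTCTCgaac
Rps10: gcgccgcgcacgCCCCTTCCTTTCCagcct
Rpl14: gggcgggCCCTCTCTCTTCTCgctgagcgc
Rps25: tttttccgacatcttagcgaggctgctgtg
Rpsa: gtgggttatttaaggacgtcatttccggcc
Rpl7l1: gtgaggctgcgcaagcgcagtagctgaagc
These lie at chr4:86857353-86857382 (minus strand) for Rps6, chr2:39005117-39005146 (minus) for Rpl35, chr17:27635230-27635259 (minus) for Rps10 and chr9:120571502-120571531 (plus) for Rpl14. The others lie at chr9:44407699-44407728 (plus) for Rps25, chr9:120127751-120127780 (plus) for Rpsa and chr17:46782642-46782671 (minus) for Rpl7l1. Gnb5, the gene the mice lack, lies on chromosome 9 as well, like Rps25, Rpsa and Rpl14. Rpl4 and Rps27l, with differences of 0.03 and -0.04, are also on that chromosome. The labels give no strain, and the part of this shared location in the values was not tested. The run had 10 bases in Rps6, 18 in Rpl35, 13 in Rps10 and 14 in Rpl14. Over all promoters it was present in 27 of 44 members (61.4%) and in 9297 of 27025 genes (34.4%). Runs of at least 8 bases, a length chosen after the sequences were seen, were present in 17 of 44 members (38.6%) and in 9.43% of all genes. Annotated starts can be off by several bases, so a missing run says only that the letters are not in this window.

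Checks of the arrays came first. The brighter Gnb5 probe, in log2 signal, read 8.80, 8.51 and 8.70 in wild type against 3.65, 3.36 and 2.96 in Gb5-deficient mice. Of the cerebellar neuron markers, 14 of 17 passed the filter on dim genes, and the Purkinje cell gene Pcp2 and the granule cell gene Gabra6 lay at the 98.6th and 98.4th percentiles of all probes. Of 10 forebrain genes 6 passed it. Gb5-deficient array 6 stood apart: Xist read 8.22 there and 11.17 to 11.64 on the other arrays, and the Y-linked Eif2s3y read 11.80 against 3.19 to 3.43, a male pattern beside 5 female ones that goes against the sex matching in the labels. On that array the 3′ minus 5′ difference of the Gapdh control probes was 1.58, against 1.03 to 1.14 on the others. Results are therefore also given without it.

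Of the 50 genes, 46 had a mean signal above the filter, set at the 30th percentile of all probes (4.70, log2). Their median signal was 12.89 (log2), and 35 of the 46 lay above the 95th percentile of all probes, as is usual for these mRNAs. A probe's signal depends on its own binding strength, so these levels do not rank the genes by RNA amount. The 4 genes below the filter were Rpl37, Rps16, Rpl39l and Rpl3l. Rpl3l, known as the form of Rpl3 in heart and skeletal muscle, read 3.36, 3.39 and 3.41 in wild type against 3.33, 3.48 and 3.63 in Gb5-deficient mice. Its probe lay at the 12.4th percentile in brain. Rpl39l, known from testis, had means of 4.40 ± 0.08 and 4.43 ± 0.26 (log2, SD, n = 3 each). For Rpl37 and Rps16 the single-gene probes were dim as well, with wild-type means of 4.55 and 2.79 and differences of -0.00 and -0.01. Brighter probes annotated to several genes exist for this family, and their values are given further on.

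No cytosolic ribosomal protein gene passed the test between the genotypes after adjustment over all genes. Differences throughout are Gb5-deficient minus wild type on the log2 scale, from limma fitted over all 14067 genes above the filter, with Benjamini-Hochberg adjustment over those genes and a threshold of 0.05. None of the 46 passed, where 0.0355% of all genes did, and their adjusted p ran from 0.479 to 0.980. An unadjusted limma p under 0.05 was reached by 3 of the 46, against 8.57% of all genes. Of these Rpsa and Rps4l were 2 with higher signal (5.7% of all genes), and Rpl7l1 was 1 with lower signal (2.86% of all genes). The count was 1 without array 6, where Rpsa had an unadjusted limma p of 0.149 and Rps4l one of 0.0543. It was also 1 without wild-type array 2. The share of all genes was not counted with arrays left out, so these 2 counts have no background beside them. In bulk tissue, fewer cells of a type and less RNA per cell cannot be told apart, and normalization between arrays removes any change common to most genes.

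The values of the family lay close to 0. Its median difference was 0.02, and the median over all genes was 0.03. The value was positive in 29 members and negative in 17, where 56.7% of all genes were positive. In 39 of the 46 members the difference was smaller than 0.1 in size, compared with 46.7% of all genes. The 95% interval lay wholly within 0.2 of 0 for 26 members and for 6.4% of all genes. Brightness goes with this: for the 34 members with a mean above 12 the median SE was 0.05, for 975 other genes above 12 it was 0.06, and over all genes it was 0.12. The counts under 0.1 and within 0.2 were not made for those 975 genes, so they are not read as a trait of the family. Whether differences shrink at such high signal was not tested. Among those bright genes the median size of the difference was 0.03 for members and 0.05 for the others. With sign kept, the median difference was 0.025 for the bright members and -0.025 for the bright others, which was not tested. The differences of the 34 bright members ran from -0.04 for Rps29 to 0.29 for Rpsa. Without array 6 the family median was 0.03, and 38 of the 46 stayed under 0.1 in size.

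**Figure D1:**
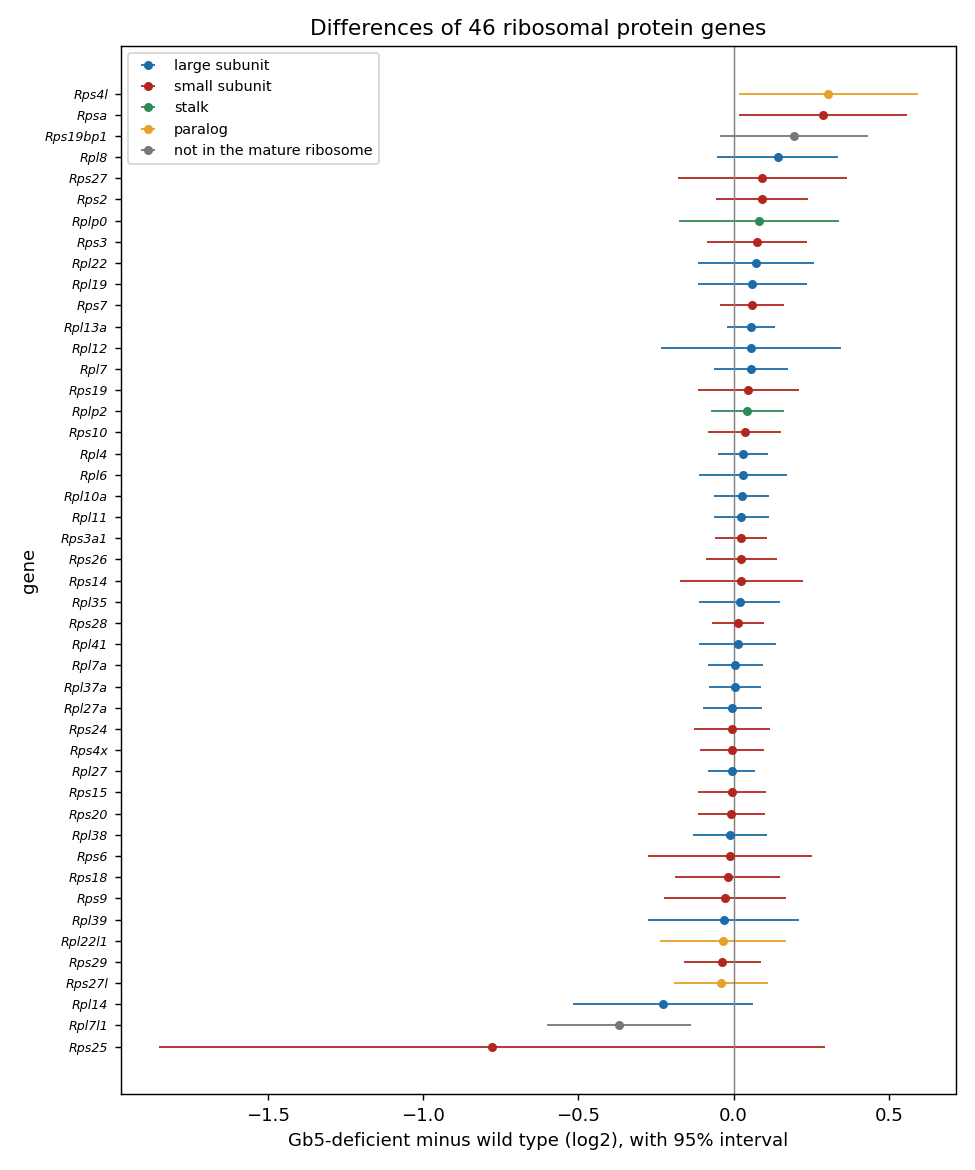
Difference of each of the 46 genes above the filter (horizontal axis, Gb5-deficient minus wild type, log2), with points for the limma estimate from 3 arrays a group, bars for its 95% interval, and colours for the role of the protein. Most points sit within 0.1 of 0 with short bars, and the widest bar is that of Rps25, at -0.78.

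Values of the large-subunit genes lay on both sides of 0. Of 19 above the filter 14 had positive and 5 negative values, with a median of 0.03 and a range from -0.23 to 0.14. Rpl4, whose protein lines the exit tunnel for the growing chain, had a difference of 0.03 (SE 0.04, 95% interval -0.05 to 0.11). Rpl11, which with Rpl5 carries the 5S rRNA and can bind the p53 regulator Mdm2, read 13.30, 13.34 and 13.38 in wild type against 13.35, 13.39 and 13.37 in Gb5-deficient mice. Its groups overlap, and its difference was 0.03 (SE 0.04). The probes for Rpl5 are annotated to a further gene as well and gave no single-gene value. Rpl8, whose protein lies next to the site of peptide bond formation, had the highest value among large-subunit genes. It read 11.94, 12.09 and 12.20 in wild type against 12.08, 12.29 and 12.28 in Gb5-deficient mice. Its difference was 0.14 (SE 0.09, limma adjusted p = 0.618), and array 4 lay below the wild-type array 2. Without wild-type array 1 it was 0.07.

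Rpl13a, also known for a role in silencing inflammatory mRNAs outside the ribosome, read 13.54, 13.57 and 13.58 in wild type against 13.61, 13.62 and 13.62 in Gb5-deficient mice. All 3 Gb5-deficient arrays lay above the wild-type arrays, by a small margin. The difference was 0.06 (SE 0.03, limma adjusted p = 0.620), a fold of 1.04. Its 3 other probes, all dimmer, had differences of 0.14, 0.01 and -0.13, so the sign depended on the probe. Rpl14 had the lowest value of the subunit. It read 8.48, 8.83 and 8.66 in wild type against 8.46, 8.56 and 8.27 in Gb5-deficient mice, and the groups overlap. The difference was -0.23 (SE 0.13, limma adjusted p = 0.612), and it was -0.15 without array 6 and -0.14 without wild-type array 2.

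Both measured stalk genes had small positive values. The stalk is the flexible arm of the large subunit that recruits elongation factors, with Rplp0 as its base. Rplp0 read 11.17, 11.61 and 11.53 in wild type against 11.44, 11.59 and 11.53 in Gb5-deficient mice. Wild-type array 1 was the low one, and without it the difference of 0.08 (SE 0.11, adjusted p = 0.807 in limma) became -0.05. Rplp2, one of the acidic tip proteins, read 13.60, 13.69 and 13.69 in wild type against 13.62, 13.80 and 13.68 in Gb5-deficient mice, a difference of 0.04 (SE 0.05). Without array 5 its difference was -0.00.

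Small-subunit genes were spread around 0 with a pair of members apart from the rest, Rps25 and Rpsa. Of 20 above the filter 11 had positive and 9 negative values, with a median of 0.02. Rps7 had groups that did not overlap, reading 12.81, 12.86 and 12.89 in wild type against 12.90, 12.91 and 12.94 in Gb5-deficient mice. Its difference was 0.06 (SE 0.04, limma adjusted p = 0.666). The highest wild-type and lowest Gb5-deficient readings of Rps7 lie closer together than those of Rpl13a. Rps2, in the body of the subunit, had a difference of 0.09 (SE 0.06), and Rps27, a zinc-binding protein, had one of 0.09 (SE 0.12). Without wild-type array 1 the value of Rps2 was 0.05, without array 6 it was 0.06, and without array 4 it was 0.14. That of Rps27 was 0.0049 without array 5, 0.042 without wild-type array 1 and 0.15 without array 6.

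Rps25 held the largest difference of the family, and its size rested on a single array. Its protein sits on the head of the small subunit and is known for a part in initiation on viral internal entry sites. The probe read 10.85, 10.77 and 10.87 in wild type against 8.70, 10.74 and 10.72 in Gb5-deficient mice. Arrays 5 and 6 lay just below wild type, and array 4 stood at -2.07 from the median of the other 5. The difference was -0.78 (SE 0.47, 95% interval -1.85 to 0.29, limma adjusted p = 0.618), and without array 4 it was -0.10. Rps25 was the only one of the 46 with an array more than 0.5 away from the median of the others, where 13.4% of all genes had one. A brighter probe annotated to Rps25 and 2 further genes did not show the drop: it read 13.52, 13.51 and 13.49 in wild type against 13.59, 13.49 and 13.54 in Gb5-deficient mice. The cause of the low reading on array 4 was not tested.

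Rpsa, whose protein is also known as a laminin receptor, had the largest value among bright members. It read 11.83, 12.14 and 12.22 in wild type against 12.16, 12.38 and 12.51 in Gb5-deficient mice. Array 4 lay below wild-type array 3, so the groups overlap. The difference was 0.29 (SE 0.12, 95% interval 0.02 to 0.56), with an unadjusted limma p of 0.0395 and an adjusted p of 0.574. It was 0.17 without wild-type array 1 and 0.21 without array 6. The second Rpsa probe, far dimmer with means of 6.07 and 6.02, had a difference of -0.05.

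**Figure D2:**
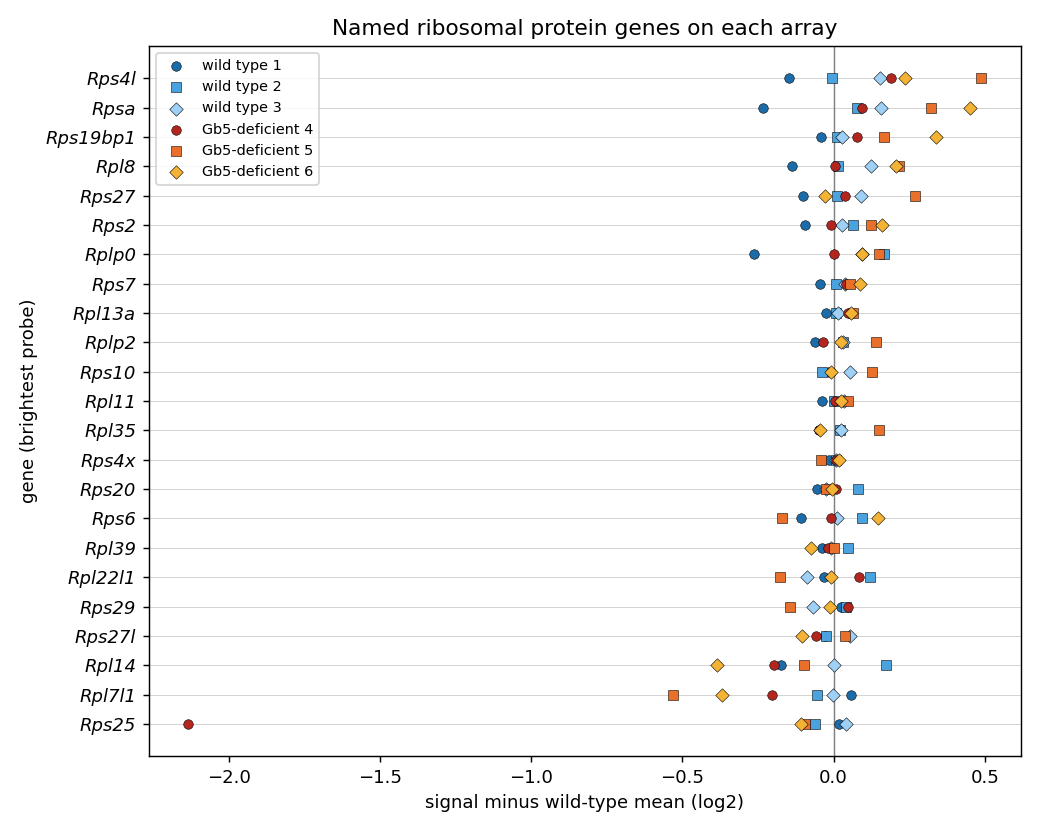
Signal of 23 named genes on each of the 6 arrays (horizontal axis, log2 signal minus the wild-type mean of the gene), sorted by difference, with blue symbols for wild type and red to yellow symbols for Gb5-deficient mice. Most genes have mixed colours within 0.2 of 0, and the point far to the left is Rps25 on array 4.

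Rps6, the ribosomal protein phosphorylated by the S6 kinases downstream of mTOR, gave unlike answers by probe. Its brighter single-gene probe read 8.85, 9.05 and 8.97 in wild type against 8.95, 8.78 and 9.10 in Gb5-deficient mice, a difference of -0.01 (SE 0.12). The dimmer probe read 4.99, 5.04 and 5.43 in wild type against 5.84, 6.17 and 6.47 in Gb5-deficient mice. All 3 Gb5-deficient arrays lay above all wild-type arrays there. That difference was 1.00 (SE 0.19, 95% interval 0.57 to 1.43), with an adjusted p of 0.281 when limma was run on every probe. It was the largest among all probes of the family and the smallest adjusted p among them.

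The paralogs and name-alikes ranged from values near 0 to some of the larger ones. Rps4l, listed as a pseudogene related to the X-linked Rps4x, read 7.77, 7.91 and 8.07 in wild type against 8.11, 8.41 and 8.16 in Gb5-deficient mice. Its groups did not overlap, and its difference was 0.30 (SE 0.13, limma adjusted p = 0.574). Rps4x itself had a difference of -0.01 (SE 0.05), with 12.68 on array 6, the array with male signal, and 12.62 to 12.67 on the others. The X-linked Rpl39 was dim, at 5.18 ± 0.04 and 5.15 ± 0.04 (log2, SD, n = 3 each). Rpl22l1, the paralog that can replace Rpl22, had a difference of -0.03 (SE 0.09), and Rpl22 one of 0.07 (SE 0.08). Rps27l, known as a p53 target, read 11.73, 11.73 and 11.81 in wild type against 11.70, 11.79 and 11.65 in Gb5-deficient mice, a difference of -0.04 (SE 0.07). Its other probes had differences of -0.06 and -0.07.

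Rpl7l1 had the smallest p of all 46. It read 10.59, 10.48 and 10.53 in wild type against 10.33, 10.0002 and 10.16 in Gb5-deficient mice, with no overlap. The difference was -0.37 (SE 0.10, 95% interval -0.60 to -0.14), the unadjusted limma p was 0.00616 and the adjusted p 0.479. By unadjusted p it stood at rank 179 of all genes. A second Rpl7l1 probe pointed the other way without overlap, at 8.27, 8.45 and 8.34 in wild type against 8.58, 8.68 and 8.56 in Gb5-deficient mice, a difference of 0.26 (SE 0.10). The third had a difference of 0.08, and the mean of the 3 probes one of -0.01. Rps19bp1 read 8.74, 8.79 and 8.81 in wild type against 8.86, 8.95 and 9.12 in Gb5-deficient mice. These groups did not overlap either, and the difference was 0.19 (SE 0.10, limma adjusted p = 0.612), or 0.12 without array 6.

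In all, groups did not overlap in 4 genes with higher Gb5-deficient signal (Rps4l, Rps19bp1, Rpl13a and Rps7), where 10.1% of all genes met this. They did not overlap in 2 genes with lower signal (Rpl7l1 and Rps25), where 4.82% of all genes did. These shares are near the background and are not read as a result about the family. With array medians subtracted the split was 2 higher, against 8.78% of all genes, and 4 lower, against 4.96% of all genes.

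Several probes of 1 gene gave a second view of each value. Of the 46 genes 24 had more than 1 single-gene probe, and 56 further probes could be set beside the brightest. Of these 27 had the opposite sign. The 26 further probes with a mean above 12 stayed between -0.15 and 0.08. The 16 with a mean below 8 ran from -0.33 to 1.00. Rps20, in the head of the small subunit, had a difference of -0.01 by its brightest probe. A dim probe of it read 6.82, 6.88 and 6.76 in wild type against 7.10, 7.30 and 7.19 in Gb5-deficient mice, a difference of 0.38 (SE 0.11) with an adjusted p of 0.518 when limma was run on every probe. Rpl35, at the rim of the exit tunnel, had differences from 0.01 to 0.03 by 5 bright probes. Its dim sixth probe read 7.19, 7.23 and 7.31 in wild type against 6.77, 6.99 and 6.98 in Gb5-deficient mice, a difference of -0.33 (SE 0.11). For Rps10, which sits near the mRNA entry, the brightest probe gave 0.04 and a dim probe -0.23. Run on every probe, limma called none of the 97 member probes above the filter, against 0.0308% of all probes. An unadjusted p under 0.05 was reached by 8 of the 97, against 8.38% of all probes. Groups did not overlap in 7 of the 97 with higher Gb5-deficient signal (9.49% of all probes) and in 5 with lower signal (5.39% of all probes).

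**Figure D3:**
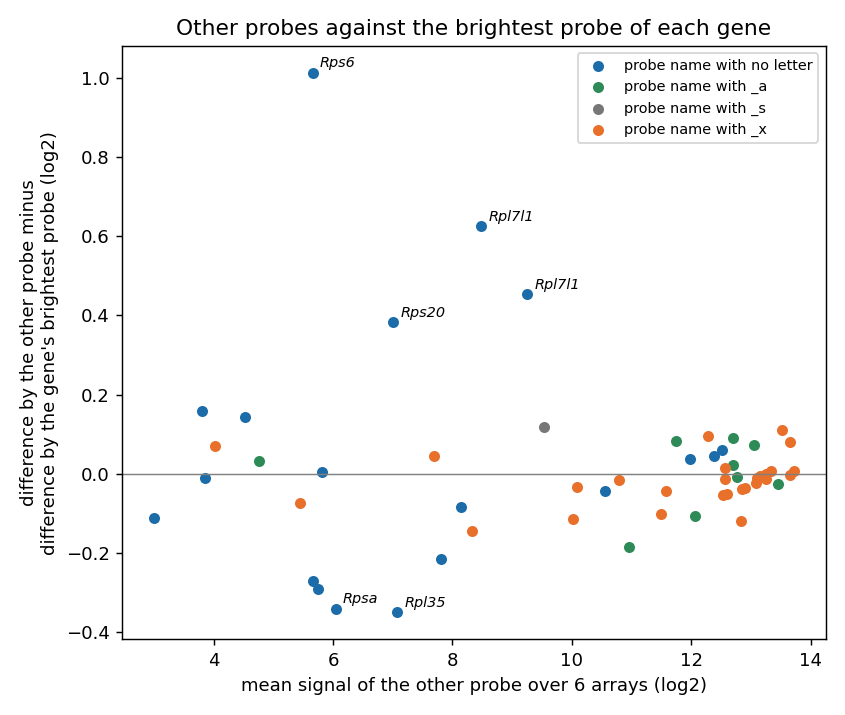
Each point is 1 of the 56 further probes, with its mean signal over 6 arrays (horizontal axis, log2) and its difference minus that of the brightest probe of its gene (vertical axis, log2), coloured by the letter in the probe name. Bright probes lie near 0, and the labelled probes of Rps6, Rpl7l1, Rps20, Rpl35 and Rpsa all have means below 10.

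Probe names mark how specific a probe set is: in this maker's naming, _a marks transcripts of 1 gene, _s several genes, and _x probes that may bind unrelated sequences. Of the 106 member probes 40 carried _x, 28 _a, 3 _s and 35 no letter. Among the 46 representing probes these were 12, 19, 2 and 13. A further 110 probes were annotated to a gene of this family together with other genes and were not used for single genes. Of these 78 had a mean above 12. Their differences had a median of 0.02 and ran from -0.30 to 0.23, and 91 of the 110 were smaller than 0.1 in size. These values lay in the range of the members.

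Single arrays deviated within each genotype. The median deviation of the 46 genes from their means was -0.05, 0.01 and 0.01 on the wild-type arrays and -0.01, 0.05 and 0.01 on the Gb5-deficient arrays. Wild-type array 1 was the lowest of the 6 for 26 genes (56.5%), against 31.8% of all genes and 14.7% of the 975 other genes with means above 12. Gb5-deficient array 5 was the highest for 20 genes (43.5%) and the lowest for 9, against 27.6% and 19.5% of all genes. Among the bright other genes array 5 was the highest in 17.7% and the lowest in 42.8%. The median deviation of those bright genes was 0.03 on array 1 and -0.04 on array 5, opposite in sign to that of the members, a description with no test. Without wild-type array 1 the median difference of the family was -0.00, and without array 5 it was 0.01.

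**Figure D4:**
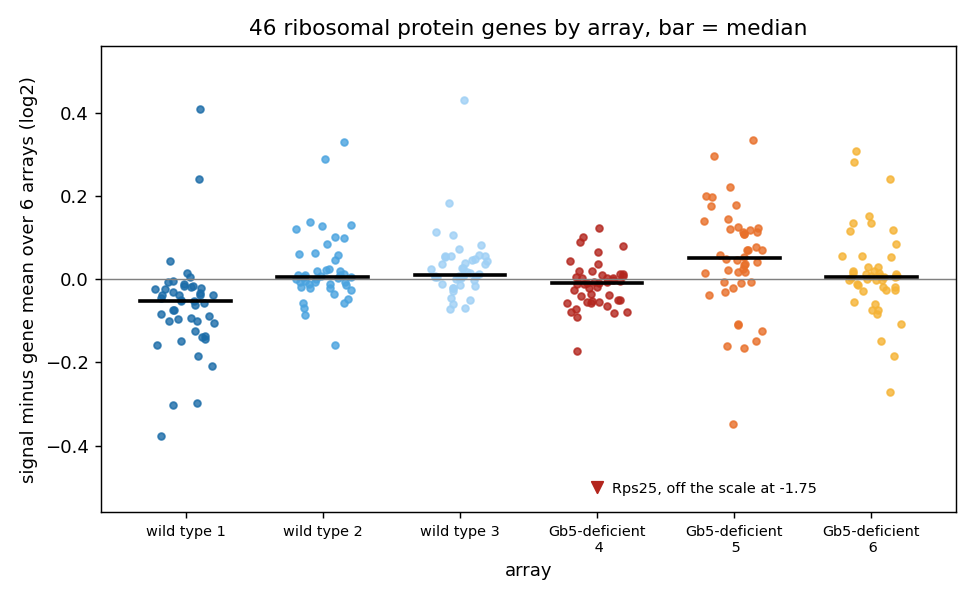
Signal of each of the 46 genes minus its mean over the 6 arrays (vertical axis, log2), 1 point a gene, with the black bar at the median of each array. The bar is lowest on wild-type array 1 and highest on Gb5-deficient array 5, and Rps25 on array 4, drawn as a triangle at the edge, lies off the scale.

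The members did not move as 1 block on those arrays. Over the 6 arrays the median Pearson r of the 1035 gene pairs was 0.33, and 33.6% of pairs were negative, a description over 6 arrays that share 1 normalization. On array 5 the probes were split. Of the member probes with means above 12, those with _a had array 5 as the highest in 16 of 23 and as the lowest in 3. For those with _x it was 13 and 11 of 30, and for those with no letter 3 and 0 of 5. Among other probes above 12, array 5 was the highest in 15.1% and the lowest in 47.9% of those with _a. For other probes with _x the shares were 14.2% and 55.3%, and with no letter 18.3% and 40.1%. Several _x probes share a gene, such as Rpl35 with array 5 highest and Rps24 with array 5 lowest. Rps18 held both within 1 gene. Its brightest _x probe read 12.90, 13.02 and 12.88 in wild type against 13.05, 12.77 and 12.92 in Gb5-deficient mice, with array 5 lowest. Another _x probe of Rps18 had array 5 highest, at 12.45. Its _a probe read 12.57, 12.64 and 12.76 in wild type against 12.61, 12.91 and 12.67 in Gb5-deficient mice, with array 5 highest. The part of the probe design in this split was not tested.

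Other lists of protein synthesis genes had medians from 0.00 to 0.07. None of their genes passed at an adjusted limma p of 0.05, where 0.0355% of all genes did. Fau, a small-subunit protein made as a fusion and outside the naming rule, had a difference of 0.03 (SE 0.05). Mitochondrial ribosomal proteins (76 measured) had positive values in 49 and negative in 27, with a median of 0.05. The lowest of them, Mrpl35, had a difference of -0.36, close to that of Rpl7l1. Ribosome assembly and rRNA synthesis genes (48 measured) were positive in 34, with a median of 0.07, above that of the family. Of all genes 56.7% were positive, with a median of 0.03. Nhp2, of the pseudouridylation complex, had a difference of 0.35, and Pes1, needed for the large subunit, one of 0.27. Translation factors (33 measured) had a median of 0.03, with the initiation factor subunits Eif3c at 0.25 and Eif3l at 0.23. Among 20 measured genes that control ribosomal protein synthesis or the Mdm2 checkpoint, the median was 0.00. The translation repressor Eif4ebp1 had a difference of 0.37 and the p53 target Cdkn1a one of 0.29. An unadjusted limma p under 0.05 was reached by 2 of the 76, 2 of the 48, 1 of the 33 and 2 of the 20, against 8.57% of all genes. Human orthologs of some ribosomal protein genes are mutated in Diamond-Blackfan anaemia. The 11 measured genes of that list had a median of 0.02 and a range from -0.04 to 0.09.

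Levels of other cells' marker genes also differed between arrays, and their part in the members' values was not tested. The mean signal of 12 oligodendrocyte and astrocyte genes was 11.52, 11.56 and 11.56 in wild type against 11.55, 11.55 and 11.57 in Gb5-deficient mice. That of 8 microglia genes was 8.14, 8.20 and 8.23 against 8.05, 8.35 and 8.29. The 14 cerebellar neuron genes read 11.78, 11.58 and 11.54 in wild type against 11.87, 11.47 and 11.72 in Gb5-deficient mice. Wild-type array 1 was the lowest of its group for the glial and microglia genes and the highest for the neuron genes. Array 5 was the highest of all for the microglia genes and the lowest of all for the neuron genes. For the glial genes it lay within the range of the others. Of the 12 glial genes, 7 had positive and 5 negative differences, from -0.20 for Mobp to 0.22 for Aldh1l1. Groups did not overlap in 3 of the 12 with lower signal (4.82% of all genes) and in 0 with higher signal (10.1%). The 9 choroid plexus genes varied most, at 8.77, 7.22 and 7.18 in wild type against 6.59, 7.98 and 8.21 in Gb5-deficient mice. They were lowest on array 4, the array with the low Rps25 reading. On the wild-type arrays, in the same order, Rps25 read 10.85, 10.77 and 10.87. Any relation of Rps25 to the choroid plexus genes was not tested. Vessel and meninges genes (10 measured) ran from 9.95 to 9.99 in wild type and from 9.75 to 9.91 in Gb5-deficient mice, and blood genes (6 measured) from 8.65 to 8.94 and from 8.06 to 8.37. The blood genes did not share a direction: 3 had positive and 3 negative differences, from -2.08 for Alas2 to 0.37 for S100a9. Groups did not overlap in 3 of the 6 with lower signal (4.82% of all genes) and in 0 with higher signal (10.1%).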

How the data were processed

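RNA from 6 mouse brain samples was measured on 1 array each. The authors deposited log2 probe signals, and the submitters' processing notes name RMA and Partek without versions. RMA normalizes between arrays. No scanner file, detection call or scan date was used. Groups came from the sample titles. Of 45101 probes 34945 had 1 annotated gene, and 34741 of these took their symbol from a RefSeq table (GRCm38.p6) through Entrez identifiers. Each gene was represented by its brightest probe, and genes above the 30th percentile of probe means were fitted with limma 3.58.1 in R 4.3.3 (empirical Bayes with intensity trend, two-sided, Benjamini-Hochberg over 14067 genes). Tested on simulated data of 14067 genes, this fit recovered 37.2% of genes changed by 0.5, 86.0% by 1 and 98.4% by 2 (log2), with 4.85% false among calls. The simulated noise was normal and independent for each gene, without deviations shared by an array, and changed genes were drawn at all signal levels. These shares may therefore differ for the real arrays and for genes as bright as the members. SD values are over 3 arrays. The series' design text speaks of biological replicates. An exact permutation of 3 against 3 arrays cannot give p below 0.1 and was not used. The number of arrays limits the precision. The members and gene lists were chosen with earlier results of these data known. Named genes were those with the 6 highest and 6 lowest differences, groups that do not overlap, an outlying array or the 6 widest probe disagreements, and fixed members by role. Of the other protein synthesis lists, the 2 genes with the largest difference were to be named. Mrps23 (-0.34) completes that pair for mitochondrial ribosomal proteins, and further genes named were chosen after their values were seen. Alternatives were other filters, normalizations, probe choices, variance models and each array left out. The pseudocount alternative applied to linear values alone and was left out.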

Additional observations from a re-analysis of the deposited data

How the results depend on the processing

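No member passed the threshold under any of the alternatives run, including an adjusted p of 0.1 and every probe on its own, so the count of called members was 0 throughout. Few genes of any kind passed at 0.05, from 2 of 14067 without array 6 to 10 of 14067 without wild-type array 1. A count of 0 is near that background and is not read as a result about the family. Calls over all genes at 0.1 were not counted. The family median ran from -0.00 to 0.04 and moved by less than the spread between arrays. That spread, an SD of 0.034, is larger than the main median of 0.025. A fall of the median to 0 could therefore not have counted as a move. Genes with groups that do not overlap numbered 6, from 5 to 9 under the other settings, and 7 to 12 when single arrays were left out, where fewer arrays must be separated. Without wild-type array 3 they were 12, of which 10 higher (16.1% of all genes) and 2 lower (8.01%). Without array 4 they were 10, of which 8 higher (22.4%) and 2 lower (14.1%), and without array 5 also 10, of which 6 higher (16.04%) and 4 lower (9.8%). The 9 with probes of no letter were 5 higher (10.6%) and 4 lower (4.96%). Members with an unadjusted limma p under 0.05 numbered 1 to 4 with single arrays left out and 6 with probes of no letter. The share of all genes was not counted under these settings, so these numbers are not read as a result. Of 344 values of 23 named genes under alternatives, 313 kept their direction and 31 changed sign, in 10 genes. Other filters, the fit without intensity trend and the robust variance model cannot change a gene's difference. Other probe choices cannot change it for genes with a single probe. Many of the 313 were therefore fixed in advance and do not measure stability. With array medians subtracted, Rpl11 was -0.00019 and Rpl35 -0.0066. With a second quantile normalization, Rps20 was 0.0068 and Rps4x 0.014. With the mean of a gene's probes, Rpl35 was -0.041, Rps10 -0.029, Rps20 0.088, Rps29 0.027 and Rps6 0.50. With probes of no letter, Rpl35 was -0.33, Rps10 -0.23 and Rps20 0.38. With array weights, Rpl22l1 was 0.021, Rpl35 -0.018, Rps10 -0.0040, Rps20 0.0029, Rps29 0.0092 and Rps6 0.020. With single arrays left out, values ran from -0.093 to 0.038 for Rpl22l1, -0.046 to 0.052 for Rpl35, -0.050 to 0.16 for Rplp0 and -0.0042 to 0.082 for Rplp2. They ran from -0.0085 to 0.064 for Rps10, -0.035 to 0.034 for Rps20, -0.078 to 0.017 for Rps29, -0.016 to 0.013 for Rps4x and -0.090 to 0.070 for Rps6. For the probe choices another probe was read; in the other cases the cause was not tested. No paired analysis was possible because the labels give the 2 groups no shared replicate numbers. Without signal over background per probe, dim members could not be told from undetected ones.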
